A study of Mus musculus with 44 samples.

Results

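The genes described here are 10 imprinted genes of the mouse, followed through germ cell development: Phlda2, Grb10, Igf2r and H19, expressed from the maternal copy, and Igf2, Dlk1, Mest, Peg3, Plagl1 and Snrpn, expressed from the paternal copy. Their probes were chosen by the gene symbol in the platform annotation. Of 25697 probes on the array, 15 carried one of these symbols and stood for 9 of the 10 genes; H19 was not analysed here. Of the 15 probes, 12 were detected on at least 2 arrays (detection p under 0.01) and were tested among the 16086 probes that met this condition. The 3 probes of Plagl1, which encodes a zinc finger transcription factor, did not meet it. One of them was detected on 1 of the 44 arrays, from female cells at E15.5, with a log2 level of 6.21, and the other two were detected on none.

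The study profiled total RNA of sorted germ cells on Illumina MouseRef-8 v2 arrays. The arrays covered 1 male embryonic stem (ES) cell sample of strain OG2, which carries the Oct4-GFP transgene, primordial germ cells at embryonic day (E) 11.5 of undefined sex, female and male cells on each of the 7 days from E12.5 to E18.5, and male cells at 8, 10, 12, 14, 16, 18 and 20 days post partum (dpp). The ES cells and 14 dpp had 1 array each, and the other 21 groups had 2. The labels call the cells of every age primordial germ cells; they give no genotype or strain for them and no sorting marker. Duplicates were biological or technical, without a statement of which, so each p-value measures the spread between these arrays, which may be technical. The ES cells are 1 line on 1 array, and their spread was taken from the other groups.

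Imprinted genes carry DNA methylation that differs between the maternal and the paternal chromosome, and in body cells this difference silences one parental copy. Primordial germ cells erase these marks as they settle in the gonad and write new ones later according to their own sex: before birth in the male line, and in growing oocytes after birth in the female line. Many imprinted genes act on growth, and several belong to the insulin-like growth factor (IGF) pathway. The arrays measured total RNA of each gene and did not tell the parental copies apart.

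Levels are given as log2 of the background-corrected, quantile-normalised signal, on which an undetected probe lay mostly between 4 and 6. Where some arrays of the lower side did not detect a probe, the difference is also given as floored, that is with those arrays raised to the lowest level detected on them, a value added after the data were seen. A difference was called where limma's adjusted p was under 0.05 and the levels differed at least 2-fold. Because sorted cells were pooled, fewer expressing cells and less RNA per cell cannot be told apart.

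Several groups stood apart before any comparison. The E16.5 female arrays had the widest gap between duplicates (SD 0.687 on the log2 scale over all tested probes) and the E11.5 arrays the next (0.554), against 0.127 to 0.433 in the other groups with 2 arrays. The 2 E11.5 arrays also differed in markers of other cells. The summed linear level of 5 measured erythroid genes was 66800 in replicate 1 and 2811 in replicate 2, that of 10 mesenchyme genes was 3744 and 302.3, and that of 7 endothelium genes was 2727 and 1725. On at least 1 E11.5 array, 5 of the erythroid, 2 of the mesenchyme (Acta2 and Col1a1) and 4 of the endothelium genes were detected. Of the 7 germ cell markers with a probe, 6 or 7 were detected in each fetal and postnatal group except E16.5 females, where 4 were; Ddx4, Pou5f1 and Mael were not detected there. The summed level of 8 Sertoli cell markers was 1132 to 3164 on the E17.5 and E18.5 male arrays, where 6 and 8 of them were detected by day, and 81.8 to 144.7 on the female ones, where 2 and 0 were. The defining Sertoli genes Sox9 and Amh were not detected in E17.5 males and were in E18.5 males. Upper quartiles of intensity were 79.94 to 170.2 on the fetal arrays, 323.6 on the ES cell array and 295.5 to 605.5 on the postnatal arrays. The share of all probes detected was 25.8% and 24.9% on the E16.5 female arrays. On the E17.5 and E18.5 arrays it was 35.8% to 39.1% in females and 46.1% to 49.3% in males. Counts of detected markers in these groups are thus not on one footing.

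**Figure D1:**
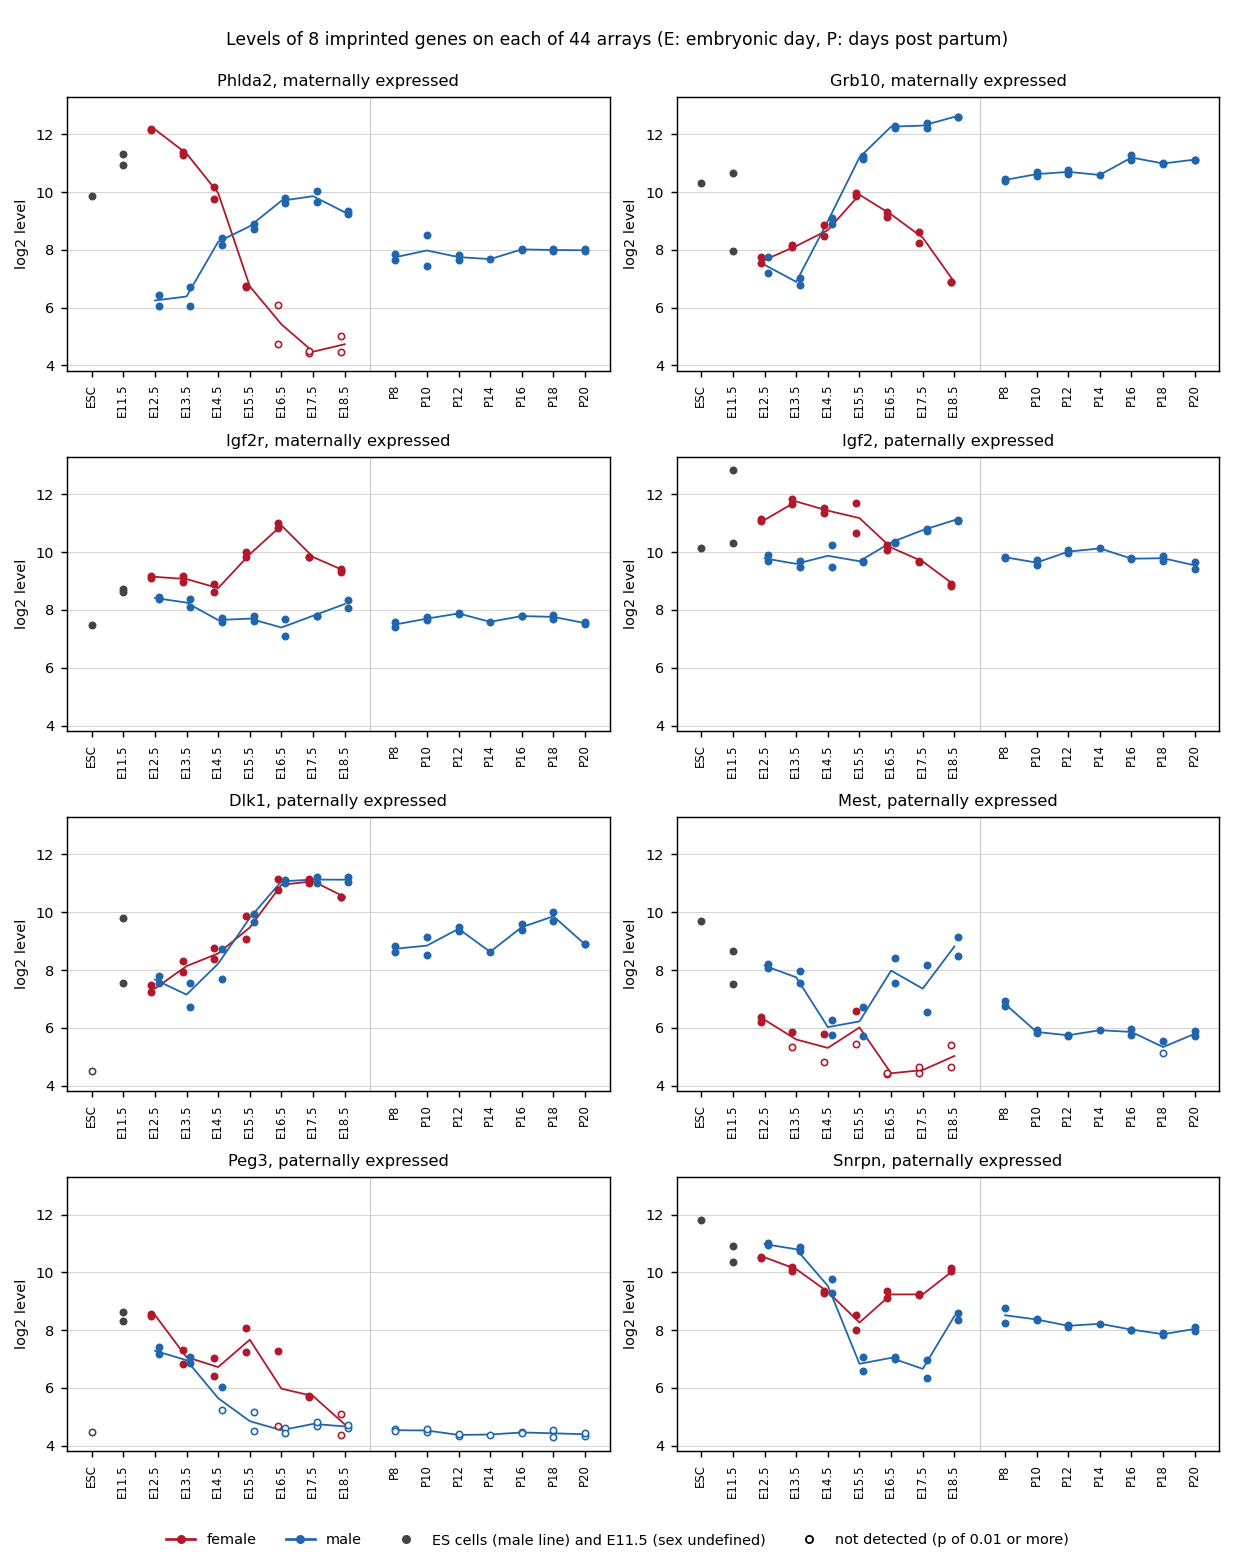
The plots show the log2 level of 8 imprinted genes (1 probe each: the first of 2 similar probes for Igf2r, otherwise the brightest) on every array, by embryonic day (E) or day post partum (P). Points are arrays, lines join group means, red is female and blue male, and open points were not detected; Phlda2 crossed between the sexes, and Dlk1 ran together in both.

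Among the maternally expressed genes, Phlda2 had the widest range. It encodes a pleckstrin homology domain protein known for restraining growth of the placenta. Its level was 9.85 in ES cells and 10.92 and 11.32 at E11.5. In female cells the duplicates were 12.15 and 12.18 at E12.5, 11.28 and 11.38 at E13.5, 10.18 and 9.75 at E14.5 and 6.71 and 6.76 at E15.5. From E16.5 to E18.5 it was not detected on any of the 6 female arrays, whose levels were 4.43 to 6.11. Male cells ran the other way, with 6.05 and 6.45 at E12.5, 6.72 and 6.05 at E13.5, 8.41 and 8.15 at E14.5, 8.90 and 8.73 at E15.5, 9.78 and 9.61 at E16.5, 10.04 and 9.67 at E17.5 and 9.35 and 9.25 at E18.5. After birth the 13 male arrays lay between 7.43 and 8.52. The female and male arrays did not overlap on any day from E12.5 to E18.5: female cells were higher through E14.5 and lower from E15.5.

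The daily difference of Phlda2, female minus male, was 5.92 at E12.5, 4.95 at E13.5, 1.69 at E14.5 and -2.08 at E15.5. It was -4.28 at E16.5, -5.38 at E17.5 and -4.57 at E18.5, and each had an SE of 0.32 from the fit. From E16.5 the female arrays did not detect the gene, so those differences are fitted values and not bounds. The lowest levels detected on the E16.5 female arrays were 7.09 and 7.21, above the fitted 5.42. The E16.5 female duplicates of this probe had an SD of 0.97. The change of the sex difference over the 7 days passed limma's F-test (adjusted p = 1.07e-16). In female cells Phlda2 fell at least 61.8-fold from E12.5 and E13.5 to E17.5 and E18.5 (adjusted p = 1.64e-18), a bound because the late arrays did not detect it. In male cells it rose by 3.26 ± 0.23 (SE) over the same days (adjusted p = 3.73e-12). In late female cells it was at least 13.7-fold lower than in male cells (adjusted p = 7.07e-16). Ordered by level, E12.5 females came first, with both arrays above every other. E13.5 females and E11.5 came next and overlapped, and E14.5 females, E17.5 males, ES cells and E16.5 males followed with levels of 9.61 to 10.18 that also overlapped.

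Sertoli, mesenchyme and endothelium markers moved beside the late sex difference. On the E17.5 and E18.5 arrays the summed endothelium level was 2240 to 2877 in males and 124 to 293 in females, and the mesenchyme level was 1108 to 1239 and 286 to 317.4. Of the 7 endothelium genes, 6 and 5 were detected in males on these days and 2 and 1 in females, and of the 10 mesenchyme genes 6 and 8 in males and 4 and 2 in females. These male arrays also detected more of all probes (46.1% to 49.3%) than the female ones (35.8% to 39.1%). The endothelium gene Kdr was not detected in males at E17.5, nor were Cdh5 and Kdr at E18.5. The cultured ES cells had an endothelium level of 1404, with Cdh5, Kdr and Tie1 undetected. At E12.5, when Phlda2 was higher in females, the Sertoli level was 2843 to 3098 in males and 1002 to 1046 in females, and the erythroid level 3565 to 3578 and 236.9 to 269. The granulosa level there was 441 to 467 in females and 45.1 to 87.2 in males, with 3 and 0 of its 6 genes detected. The part of other cells in these differences was not tested.

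Phlda2 lies in the distal imprinted cluster of chromosome 7, and its neighbour Slc22a18 moved beside it. Slc22a18 encodes a membrane transporter of the solute carrier family and is, like Phlda2, expressed from the maternal copy. Its levels in female cells were 8.72 and 8.68 at E12.5 and 8.36 and 8.47 at E14.5, and no female array from E15.5 on detected it; the 6 female arrays from E16.5 to E18.5 were at 4.33 to 5.38. In male cells it was 5.84 and 5.47, the latter undetected, at E12.5, 7.60 and 7.11 at E14.5, 8.12 and 7.73 at E16.5 and 7.62 and 7.86 at E18.5, and no postnatal array detected it. Of the 2 male arrays on each day, 1 detected the gene at E12.5 and 1 at E13.5. The differences were 3.05 (floored 2.84) at E12.5 (adjusted p = 1.12e-07), 3.14 (floored 3.06) at E13.5 (adjusted p = 1.31e-08) and at least 4.38-fold lower in females at E17.5 and E18.5 (adjusted p = 1.15e-12). The gene fell at least 8.43-fold in female cells (adjusted p = 2.52e-14) and rose by 2.15 (floored 2.00) in male cells (adjusted p = 2.70e-09). Over the 23 group means its correlation with Phlda2 was 0.734, the 35th place among 10934 genes. This value rests in part on undetected levels of Slc22a18. The ES cell array and the postnatal arrays detected Phlda2 and not Slc22a18 (9.85 against 4.88 in ES cells). Slc22a18 was singled out after its values were seen, and group means share arrays and scaling.

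Of the 15 imprinted genes listed from H19 to Osbpl5, 9 had a tested probe, Phlda2 and Igf2 included, and not all moved together. At E12.5, 4 of the 9 were called higher in females and 0 lower, against 4.61% and 3.5% of all probes. At E13.5 3 were higher and 0 lower (9.89% and 8.94%), and at E14.5 and E15.5 2 and 0 (16.5% and 17.2%). At E17.5 and E18.5 2 were higher and 4 lower (20.8% and 20.1%). From early to late days 4 rose and 0 fell in males (18.2% and 17.3%). In females 1 rose and 4 fell (9.7% and 10.5%). Cdkn1c, an inhibitor of cyclin-dependent kinases next to Slc22a18, was detected in every group and had a correlation of 0.095 with Phlda2. It was higher in females by 1.02 ± 0.28 (SE) at E12.5 (adjusted p = 0.0143) and lower by 1.67 ± 0.20 at E17.5 and E18.5, on the log2 scale (adjusted p = 4.73e-08). Nap1l4, a histone chaperone gene on the other side of Phlda2, stayed between 11.3 and 12.5 in every group mean and was called in none of the comparisons. Cd81, Tssc4, Ascl2 and Th had correlations of 0.065, -0.330, -0.273 and -0.575 with Phlda2, and Igf2 one of 0.710. Th was detected only in E17.5 and E18.5 females. Ascl2 was detected on every postnatal array and on at most 1 of the 2 arrays of any fetal group. The correlations of Th and Ascl2 thus rest largely on undetected levels.

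**Figure D2:**
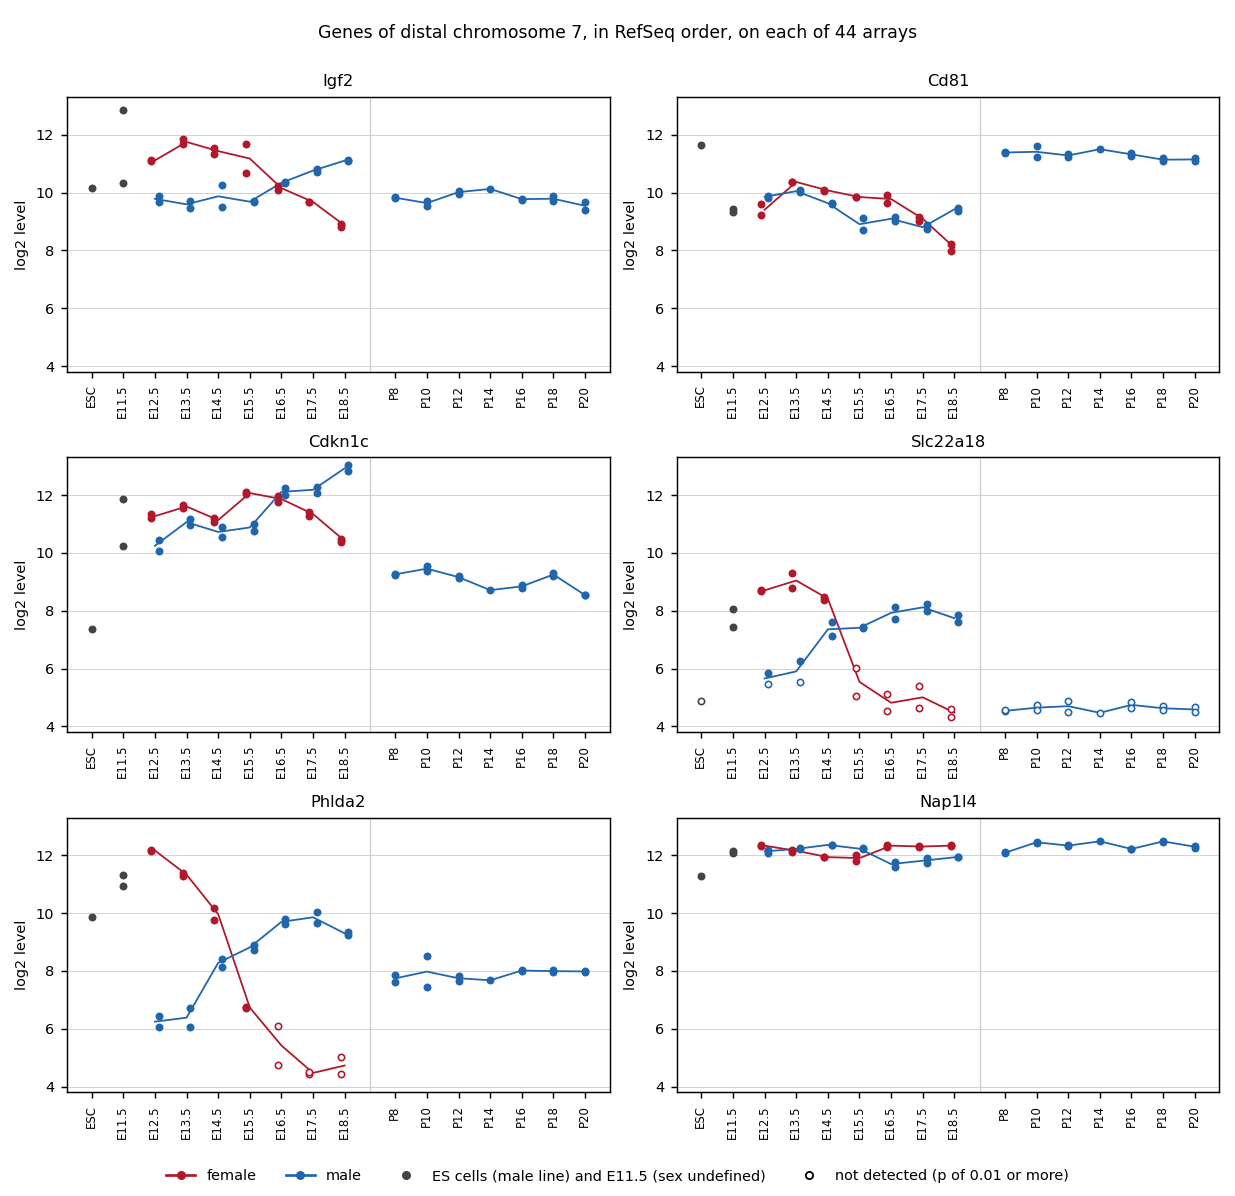
The plots show the log2 level on each array of 6 of the 9 tested chromosome 7 genes, in their RefSeq order, with the same axes, colours and open points as in the plot of the 8 genes. Slc22a18 and Phlda2 cross between the sexes near E14.5 to E15.5, and Nap1l4 is flat.

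Promoter sequences from RefSeq, build GRCm38.p6, are shown for Phlda2 and Slc22a18 because they moved together in fetal cells. Those of Grb10 and Mest are shown as a maternally and a paternally expressed gene that were both lower in late females. Each is a window of 300 bases, from 250 before to 50 after the annotated start, on the strand of the gene, with every CG, the site of DNA methylation, in capitals. Phlda2 is at chr7:143502475-143502774 (minus strand), Slc22a18 at chr7:143473539-143473838 (plus), Grb10 at chr11:12037371-12037670 (minus) and Mest at chr6:30737800-30738099 (plus); for Grb10 and Mest, which have several starts, a window with the most CG is given.
Phlda2: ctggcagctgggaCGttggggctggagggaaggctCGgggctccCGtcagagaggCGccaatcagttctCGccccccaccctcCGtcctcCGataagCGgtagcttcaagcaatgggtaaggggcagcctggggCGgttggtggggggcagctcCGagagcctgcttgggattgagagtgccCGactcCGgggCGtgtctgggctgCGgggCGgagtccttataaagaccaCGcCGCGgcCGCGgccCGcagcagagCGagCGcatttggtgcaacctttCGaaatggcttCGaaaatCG
Slc22a18: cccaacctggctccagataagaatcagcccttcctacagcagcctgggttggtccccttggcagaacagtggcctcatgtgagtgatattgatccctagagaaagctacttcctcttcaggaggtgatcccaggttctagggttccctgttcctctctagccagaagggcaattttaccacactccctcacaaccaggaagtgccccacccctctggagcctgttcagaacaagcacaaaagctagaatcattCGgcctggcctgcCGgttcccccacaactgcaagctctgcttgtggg
Grb10: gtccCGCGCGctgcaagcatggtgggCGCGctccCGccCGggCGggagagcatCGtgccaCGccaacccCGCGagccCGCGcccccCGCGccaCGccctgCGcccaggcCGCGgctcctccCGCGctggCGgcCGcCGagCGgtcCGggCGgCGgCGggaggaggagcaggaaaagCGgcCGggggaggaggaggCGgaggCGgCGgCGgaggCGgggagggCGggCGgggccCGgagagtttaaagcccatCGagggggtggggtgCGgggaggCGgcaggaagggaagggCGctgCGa
Mest: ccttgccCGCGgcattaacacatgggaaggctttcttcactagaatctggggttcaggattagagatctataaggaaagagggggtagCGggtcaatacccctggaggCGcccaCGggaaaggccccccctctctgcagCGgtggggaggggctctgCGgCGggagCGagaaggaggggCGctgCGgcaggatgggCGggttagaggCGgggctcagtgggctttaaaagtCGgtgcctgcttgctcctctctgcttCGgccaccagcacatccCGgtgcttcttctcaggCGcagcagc

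The Phlda2 window held 26 CG and that of Slc22a18 2, against a median of 7 over 32851 windows. This pair, alike in course in fetal cells, thus had promoters of unlike CG content. The Grb10 window held 45, a number reached by 1.93% of windows, and the Mest window 17. The letters TGCCGC, in which the imprint-keeping protein ZFP57 binds its methylated target, were searched on both strands. They occurred 2 times in the Mest window and 1 time in that of Grb10, and were not in the windows of Phlda2 and Slc22a18. They occurred in at least 1 window of 5 of the 9 member genes with windows, and in 11.6% of all single windows. Member genes had 1 to 4 windows each, so the count of genes and the share of windows cannot be compared. Such a match is a description of letters, not a bound site.

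Grb10 encodes an adaptor that binds the insulin and IGF1 receptors and dampens their signal. It was 10.31 in ES cells, and 10.64 and 7.94 on the 2 E11.5 arrays. In male cells it went from 7.75 and 7.21 at E12.5 and 6.77 and 7.02 at E13.5 to 9.09 and 8.89 at E14.5, 11.24 and 11.15 at E15.5 and 12.59 and 12.61 at E18.5. In female cells it was 7.54 and 7.75 at E12.5, 9.97 and 9.85 at E15.5 and 6.89 and 6.88 at E18.5. The sexes overlapped at E12.5, female arrays were above male ones at E13.5, and from E14.5 each male array was above each female one. Grb10 rose in male cells by 5.26 ± 0.30 (SE) from E12.5 and E13.5 to E17.5 and E18.5 (adjusted p = 5.17e-14), the highest rise of the 12 probes. Over the same days the female difference was -0.24 ± 0.30 (adjusted p = 0.561), and the day at which females peaked, E15.5, lies between these pairs. The sex difference at E17.5 and E18.5 was -4.80 ± 0.30 (adjusted p = 1.98e-13), and its change over the days passed the F-test (adjusted p = 8.97e-10). The 13 postnatal arrays were at 10.37 to 11.28. At the top of its order E18.5 males stood above all other arrays, and E17.5 and E16.5 males overlapped. At E13.5 Grb10 was higher in females by 1.24 ± 0.42 (adjusted p = 0.0254), a call that was lost when any of the 4 arrays was left out.

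Igf2r encodes the receptor that carries IGF2 to the lysosome for breakdown. Its 2 probes had a correlation of 0.893 over the 44 arrays. On the first, ES cells were at 7.46 and E11.5 at 8.71 and 8.61. Female cells were at 9.17 and 9.11 at E12.5, 8.90 and 8.61 at E14.5, 10.82 and 11.02 at E16.5 and 9.30 and 9.40 at E18.5. Male cells were at 8.44 and 8.39 at E12.5, 7.69 and 7.09 at E16.5 and 8.33 and 8.07 at E18.5. Each female array was above each male array of its day on both probes, with the widest gap at E16.5 on the first (3.53) and at E17.5 on the second (2.51). The difference at E14.5 and E15.5 was 1.67 ± 0.12 and 1.61 ± 0.12 (SE) on the 2 probes (adjusted p = 3.58e-12 and 5.59e-12), and at E17.5 and E18.5 it was 1.59 and 1.75 (adjusted p = 6.00e-12 and 8.02e-13). The change of the sex difference over the days passed the F-test on both (adjusted p = 5.14e-10 and 3.70e-08). Between early and late cells of either sex both probes differed by less than 2-fold, at most by 0.79 on the log2 scale, so neither was called.

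Among the paternally expressed genes, Igf2, the fetal growth factor bound by Igf2r, also crossed between the sexes, later than Phlda2. ES cells were at 10.16, and the 2 E11.5 arrays at 12.84 and 10.33. Female cells were at 11.14 and 11.09 at E12.5, 11.84 and 11.66 at E13.5, 11.69 and 10.66 at E15.5, 10.07 and 10.23 at E16.5 and 8.91 and 8.81 at E18.5. Male cells were at 9.68 and 9.89 at E12.5, 9.71 and 9.66 at E15.5, 10.35 and 10.33 at E16.5 and 11.09 and 11.12 at E18.5. Female arrays were higher through E15.5 and lower from E16.5, without overlap on any day. The difference was 1.33 ± 0.42 (SE) at E12.5 (adjusted p = 0.0327), a call lost when any of the 4 arrays was left out. It was 2.16 at E13.5 (adjusted p = 2.60e-04), 1.53 ± 0.30 at E14.5 and E15.5 (adjusted p = 8.21e-05) and -1.66 ± 0.30 at E17.5 and E18.5 (adjusted p = 2.29e-05). The granulosa level was higher in females while Igf2 was: 441.2 to 467.3 against 45.14 to 87.22 in males at E12.5, 398.2 to 424.2 against 74.55 to 101.7 at E13.5 and 290 to 433 against 57.57 to 129.8 at E14.5 and E15.5. At E17.5 and E18.5 it was 88.96 to 134.7 in females and 375.9 to 972.8 in males. Of the 6 granulosa genes, the defining Foxl2 and also Bmp2 and Kitl were not detected in any of these groups. From E12.5 to E15.5, 2 or 3 of the 6 were detected in females by day. The part of such cells was not tested. Igf2 fell by 2.16 in female cells (adjusted p = 1.18e-06) and rose by 1.24 in male cells (adjusted p = 7.46e-04) on the log2 scale. The change of the sex difference over the days passed the F-test (adjusted p = 1.44e-06).

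Dlk1, a membrane protein of the Notch ligand family that holds back fat cell formation, rose in both sexes. ES cells did not detect it, and the 2 E11.5 arrays were at 9.79 and 7.56. Female cells were at 7.50 and 7.23 at E12.5, 9.87 and 9.07 at E15.5 and 11.01 and 11.14 at E17.5. Male cells were at 7.56 and 7.78 at E12.5, 9.94 and 9.66 at E15.5 and 11.23 and 11.02 at E17.5. It rose by 3.05 ± 0.305 (SE) in female cells (adjusted p = 6.08e-09) and by 3.72 ± 0.305 in male cells (adjusted p = 7.37e-11). No sex difference was called: the values were -0.31 at E12.5, 0.99 at E13.5, 0.01 at E14.5 and E15.5 and -0.33 at E17.5 and E18.5, with SEs of 0.305 to 0.431. Its change over the days had an adjusted p of 0.251. A p that misses the threshold does not show that the sexes were alike. With cyclic loess scaling, limma's test called the E13.5 difference (1.015, adjusted p = 0.0266). Dlk1 was at least 4.39-fold higher at E11.5 to E13.5 than in the ES cells (adjusted p = 1.75e-06).

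Mest encodes an enzyme of the alpha/beta hydrolase fold family and has an imprint at its promoter. Its 3 probes differed in brightness; on the brightest, ES cells were at 9.70 and E11.5 at 8.66 and 7.50. Male cells were at 8.08 and 8.21 at E12.5, 5.77 and 6.28 at E14.5, 7.55 and 8.41 at E16.5 and 8.47 and 9.15 at E18.5. Female cells were at 6.37 and 6.18 at E12.5 and at 4.41 to 5.41, undetected, on all 6 arrays from E16.5 to E18.5. Male arrays were above female ones on each day except E14.5 and E15.5, where they overlapped. Female cells were lower by 1.87 ± 0.46 (SE) at E12.5 (adjusted p = 6.45e-03), by 2.15 at E13.5, where 1 of 2 female arrays detected it (floored -2.02; adjusted p = 7.40e-04), both on the log2 scale, and at least 4.88-fold at E17.5 and E18.5 (adjusted p = 1.76e-09). The E12.5 call was lost without replicate 2 of the females (adjusted p = 0.0528) or of the males (adjusted p = 0.0518). The second brightest probe was called in the same 3 comparisons, at -1.83, at least 3.41-fold lower and at least 3.78-fold lower. The dimmest was called at E12.5 (at least 3.02-fold lower) and, with overlapping arrays, late, and at E13.5 it was not called (adjusted p = 0.0741). Its late call was lost without background correction (-0.45), with an offset of 50 (-0.57), with cyclic loess (-0.57) and with median scaling (-0.59). It was also lost without E18.5 female replicate 1 (-0.82), E17.5 male replicate 2 (-0.92) or E18.5 male replicate 2 (-0.78).

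Peg3, a zinc finger gene with a role in growth and maternal behaviour in mice, left the detected range in both sexes. ES cells did not detect it, and E11.5 was at 8.64 and 8.30. Female cells were at 8.57 and 8.48 at E12.5, 7.25 and 8.09 at E15.5 and 4.38 and 5.10, undetected, at E18.5. Male cells were at 7.41 and 7.16 at E12.5, and no male array from E15.5 on detected it, postnatal arrays included. Late female cells detected it on 1 of 4 arrays. The fall was 2.56 in female cells on the log2 scale (floored difference -1.97; adjusted p = 3.54e-07) and at least 4.39-fold in male cells (adjusted p = 4.79e-07). At E14.5 and E15.5 female cells were higher by 1.95 (adjusted p = 1.17e-05), with no overlap; 1 of the 4 male arrays detected Peg3, and the floored difference was 1.68. This call was lost without background correction (0.95) and with median scaling (0.975). The 2 E16.5 female arrays disagreed, at 7.28 detected and 4.67 undetected.

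Snrpn encodes SmN, a core protein of splicing particles. On its brighter probe, ES cells were at 11.82, and E11.5 at 10.37 and 10.92. Male cells went from 10.997 and 10.952 at E12.5 to 7.08 and 6.58 at E15.5, 6.33 and 6.98 at E17.5 and 8.60 and 8.36 at E18.5. Female cells went from 10.50 and 10.53 at E12.5 to 7.99 and 8.53 at E15.5 and 10.04 and 10.14 at E18.5. In both sexes E15.5 was below E14.5 and E18.5 above E15.5 on each array. The male fall was 3.32 ± 0.16 (SE) on the log2 scale (adjusted p = 2.33e-15), and the female difference was -0.65 ± 0.16, under 2-fold. Females were higher by 2.09 ± 0.16 at E17.5 and E18.5 (adjusted p = 9.61e-12). The dimmer probe was called in the same 2 comparisons, at -2.46 in males (floored -2.09) and 1.37 between the late sexes (floored 1.01), where 1 of the 4 late male arrays detected it. The late sex call was lost without background correction (0.52), with an offset of 50 (0.74), with cyclic loess (0.63) and with median scaling (0.58). The probe was not detected on any postnatal array.

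**Figure D3:**
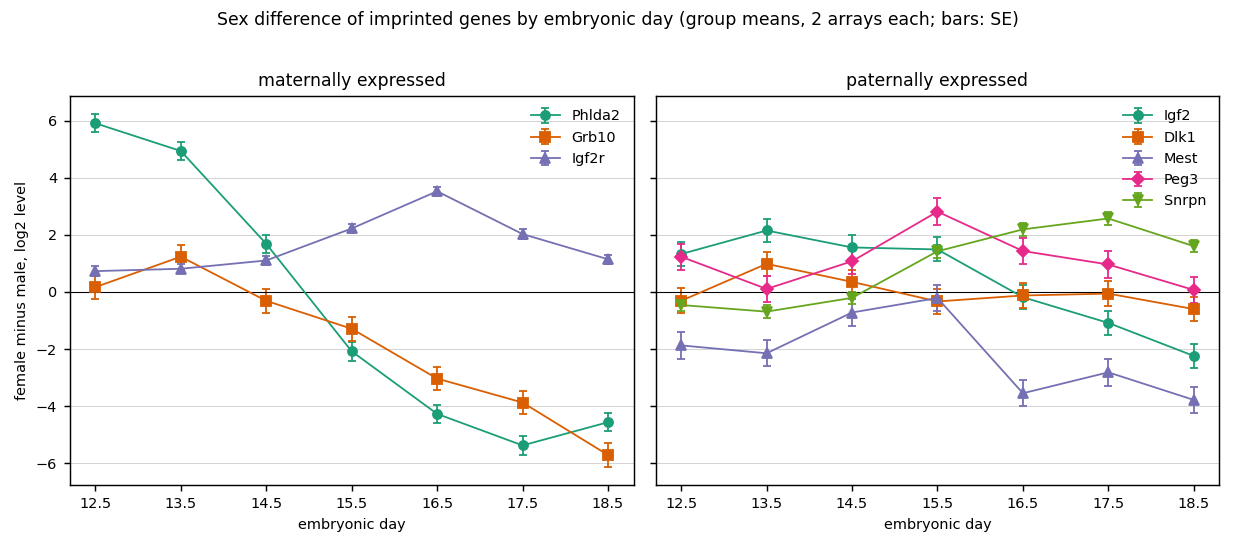
The plots show female minus male log2 level by embryonic day for 3 maternally and 5 paternally expressed genes, 1 probe each, with bars of 1 SE from the fit. Phlda2, Grb10 and Igf2 go from above to below 0, Igf2r stays above 0, Mest below, and Dlk1 lies between -0.60 (E18.5) and 0.99 (E13.5). From E16.5 to E18.5 the female arrays did not detect Phlda2 or Mest, so those points are fitted values and not bounds.

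The germ cells at E11.5 to E13.5 were compared with ES cells, a pluripotent line cultured from early embryos. Of the 12 probes, 8 were called, 4 higher and 4 lower, against 27.5% of all tested probes (13.2% higher and 14.3% lower). Dlk1, Peg3 and both Igf2r probes were higher in germ cells, by at least 4.39-fold for Dlk1, at least 3.995-fold for Peg3 and 1.25 and 1.07 on the log2 scale for Igf2r. Grb10 (-2.43 ± 0.44, SE), 2 Mest probes (-1.82, floored -1.65, and -2.53, floored -2.51) and the brighter Snrpn probe (-1.21) were lower. Of the 10 germ cell arrays, 8 and 9 detected these Mest probes. When arrays were scaled by their medians in place of quantiles, the median of all probes was -0.50, and the Igf2r probes turned to -0.05 and -0.23, or 0.45 and 0.27 above that median. The split was then 2 higher and 7 lower among the 12 probes, and 486 higher and 5761 lower among all probes. Without background correction the Igf2r differences were 0.96 and 0.83, under 2-fold.

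Between E11.5 and E12.5, when the gonad becomes visibly male or female, 4 of 12 probes were called, against 5.81% of all probes (3.39% higher and 2.42% lower). All were lower at E12.5: Phlda2 (-1.92 ± 0.28, SE), Grb10 (-1.73 ± 0.36), Dlk1 (-1.16 ± 0.37) and Igf2 (-1.14 ± 0.36). The E12.5 mean is that of both sexes, and for Phlda2 the sexes stood on either side of E11.5. The calls of Grb10, Dlk1 and Igf2 rested on E11.5 replicate 1, the array with the high erythroid and mesenchyme levels. Without it, Grb10 was at -0.38, Dlk1 at -0.04 and Igf2 at 0.12, and the only call was Phlda2, at -2.12 ± 0.36 (adjusted p = 1.16e-03). The Dlk1 and Igf2 calls were also lost when any of the 4 E12.5 arrays was left out. Without replicate 2, 6 of the 12 probes and 2414 of all probes were called, against 935 of all probes with both arrays. The part of blood and mesenchyme in these 3 genes was not tested, and 2 of the 10 mesenchyme genes were detected at E11.5.

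Between the sexes, 5 of 12 probes were called at E12.5, 2 higher in females and 3 lower, against 8.11% of all probes (4.61% higher and 3.5% lower). These probes stand for 3 genes, and the 3 lower ones are all of Mest. At E13.5, 5 probes were called, 3 higher and 2 lower, against 18.8% (9.89% higher and 8.94% lower). They stand for 4 genes, and both lower ones are of Mest. At E14.5 and E15.5, 4 probes were called, all higher in females, against 33.6% of all probes (16.5% higher and 17.2% lower), a share near the background. At E17.5 and E18.5, 10 were called, 4 higher and 6 lower, against 40.9% (20.8% higher and 20.1% lower), and the probes of Dlk1 and Peg3 were the 2 not called. By parental allele, the late calls were 2 higher and 2 lower among 4 maternally expressed probes and 2 higher and 4 lower among 8 paternally expressed ones. Neither allele group moved in a single direction. The late calls were of 3 genes in each allele group, since several genes had more than 1 probe. The median late difference was -1.60 over the maternal and -0.70 over the paternal probes, with 0.05 over all probes. No maternal probe lay near its median: Phlda2 and Grb10 were far below it, and the 2 Igf2r probes were above 0. These medians thus do not show a shift of an allele group. The sex difference changed with day on 10 of 12 probes, against 72.7% of all probes, a share near the background.

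From E12.5 and E13.5 to E17.5 and E18.5, female cells had 5 of 12 probes called, 1 higher and 4 lower, against 20.1% of all probes (9.7% higher and 10.5% lower). Male cells had 7 called, 4 higher and 3 lower, against 35.5% (18.2% higher and 17.3% lower). Phlda2 and Igf2 were called in opposite directions in the sexes, Dlk1 and Peg3 in the same direction in both, Grb10 and both Snrpn probes in males, and Mest in females on 1 probe, at least 1.10-fold lower and undetected late. This Mest call was lost without background correction (-0.43), with an offset of 50 (-0.63), with cyclic loess (-0.39), with median scaling (-0.52) and without E18.5 female replicate 2 (-0.96). The Igf2 call in males was lost with median scaling (0.78). Markers moved with the courses: in male cells the mesenchyme level went from 177.1 to 291.7 early to 1108 to 1239 late and the endothelium level from 553.5 to 1185 early to 2240 to 2877 late, and in female cells the Sertoli level went from 870.8 to 1046 early to 81.8 to 144.7 late; their part was not tested.

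After birth, male cells at 8 and 10 dpp had 6 of 12 probes called against E17.5 and E18.5, all lower, against 35.9% of all probes (18.6% higher and 17.4% lower). Phlda2 was lower by 1.72, Grb10 by 1.93, Igf2 by 1.203, Dlk1 by 2.34 and Mest by 1.90 and 1.74 on 2 probes, on the log2 scale. These values depended on scaling. With median scaling the median of all probes was itself 1.01 higher after birth, and the split of calls was 3 higher and 0 lower among the 12 probes, and 8075 higher and 1210 lower among all probes. Phlda2 was then at 0.37, Grb10 at -0.10, Igf2 at 0.88, Dlk1 at -0.30 and the Mest probes at -0.42 and -0.09. Relative to the shifted median these were -0.64, -1.11, -0.13, -1.31, -1.43 and -1.10. Sertoli levels were 1636 to 7902 at 8 and 10 dpp and 1132 to 3164 before birth, and endothelium levels were 765 to 1034 and 2240 to 2877; their part was not tested. From 8 and 10 to 18 and 20 dpp, across the first wave of meiosis, limma called no member probe, and 1.38% of all probes (1.11% higher and 0.267% lower). At an unadjusted p under 0.05 there were 2, of Mest and Snrpn. The most distant member probe was the brightest of Mest, at -0.78 ± 0.33 (SE; adjusted p = 0.323).

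**Figure D4:**
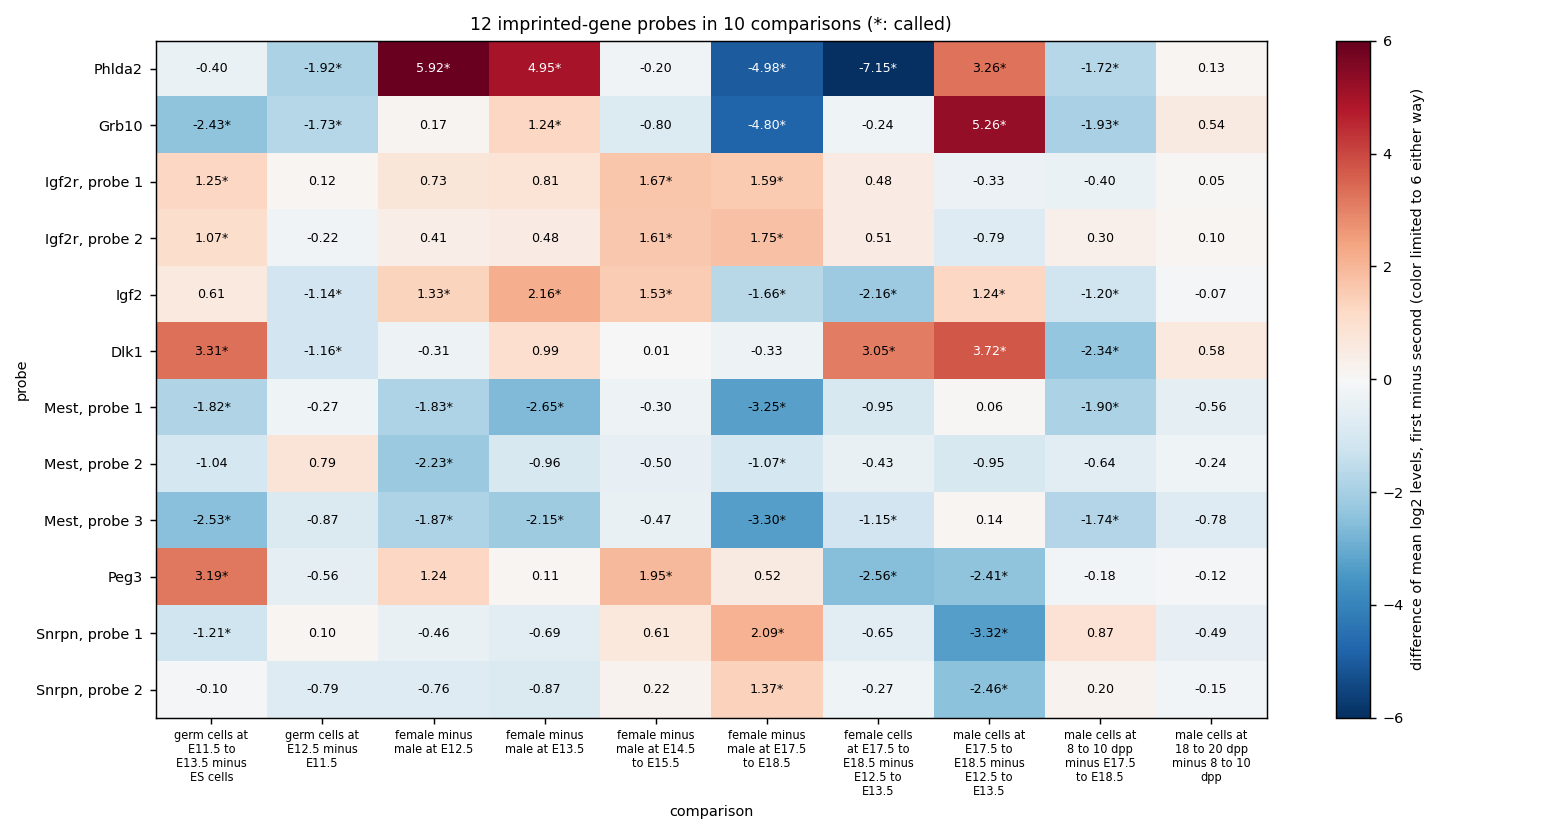
The map gives the difference of mean log2 levels (columns: comparisons, first minus second group; rows: the 12 tested probes), with a star where the difference was called. The E12.5 and E13.5 columns and the E17.5 to E18.5 column have opposite signs for Phlda2 and Igf2.

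Other imprinted genes, outside the 10, were counted from a fixed list by the brightest probe of each gene. Of 32 maternally expressed genes 15 were tested, and at E17.5 and E18.5 4 were higher in females and 2 lower; of 27 paternally expressed genes 13 were tested, with 0 higher and 3 lower. All tested probes were called in 40.9% (20.8% higher and 20.1% lower), so the 6 of 15 are near the background. The median late difference was 0.25 over the first list and -0.62 over the second, with 0.05 over all probes. Gnas, the stimulatory G protein subunit, was higher in females at E13.5 (2.06 ± 0.38, SE; adjusted p = 1.6e-04), at E14.5 and E15.5 (3.40, floored 3.23, with 3 of 4 male arrays detecting it) and late (2.24). Rasgrf1, an exchange factor for Ras, rose at least 12.8-fold in male cells (adjusted p = 4.4e-18) and by 2.60 in female cells, of which 2 of the 4 early arrays detected it (floored 1.99). Ddc, a decarboxylase of dopamine synthesis in the same cluster as Grb10, rose by 1.77 in male cells and fell in female cells, of which 1 of the 4 late arrays detected it: the floored differences were -2.46 in the female course and -3.46 between late females and males.

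In the IGF pathway, 10 of 13 listed genes were tested. Late in gestation 1 was higher in females (the binding protein gene Igfbp3, 1.37 ± 0.20, SE) and 3 were lower: Igfbp2 (-3.36, floored -3.31), Igfbp4 (-2.20, floored -1.78) and Igf2bp1 (-3.65, floored -3.33), an RNA-binding protein that binds Igf2 messenger RNA. Of the 4 late female arrays 3, 1 and 2 detected these genes. The 4 of 10 called are a share near the 40.9% of all probes. The median over the 10 was -0.22. At E12.5 the only call was Irs2, a docking protein of the receptors, at least 2.23-fold lower in females. At E13.5 none was called.

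Among genes that keep, erase or write imprints, 14 of 20 listed were tested; 5 were higher and 3 lower in late females, and 4 rose and 5 fell in male cells from early to late, against 40.9% of all probes called late and 35.5% in the male course (18.2% higher and 17.3% lower). Their median difference was 0.05 late and -0.72 in the male course, with 0.05 and -0.07 over all probes. Dnmt3l, the cofactor that directs new methylation in germ cells, was at least 190-fold lower in late females than in males (adjusted p = 5.3e-18) and rose by 6.36 in males (floored 5.80), of which neither array at E12.5 and both at E13.5 detected it. Dppa3, which shields methylation in the egg, was 5.13 ± 0.15 higher in late females, after being 3.53 lower at E14.5 and E15.5. Uhrf1, which brings DNMT1 to replicating DNA, was 2.91 ± 0.14 higher in late females. From 8 and 10 to 18 and 20 dpp none of the genes on these lists was called.

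The genes with courses most like the members' were found by correlation over the 23 group means among genes with 1 tested probe each, the brightest. The 3 most like Phlda2 were Grasp (0.859), Gstp1 (0.844) and Plcb3 (0.841). For Grb10 they were Itgb4 (0.934), Fam110a (0.921) and Slc38a5 (0.905), for Igf2r Cep41 (0.937), Pofut1 (0.928) and Egln1 (0.920), and for Igf2 Irx3 (0.855; on the list of granulosa markers), Stard8 (0.816) and Mdk (0.810). For Dlk1 they were Lrrc49 (0.902), Fam234a (0.900) and Clk3 (0.897), for Mest Tuba1a, Tpi1 and Bzw2 (each 0.875), for Peg3 Evx1 (0.905), Gabpb2 (0.897) and Rhox6 (0.895), and for Snrpn Anp32a (0.933), Cwf19l2 (0.909) and Rpp14 (0.908).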

How the data were processed

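RNA of 44 samples in 23 groups was hybridised to 1 array each. The deposited table of the whole series gives per probe a bead intensity that the authors did not normalise and a detection p-value, per the file headers. The authors' normalised log2 values, deposited for each array, were an alternative; per the submitters' processing notes BeadStudio 3.2, RMA and lumi were used. How the log2 values were centred is not given in the sources used here.

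Background was corrected from the detection p-values with limma 3.58.1 (neqc, offset 16, quantile normalisation; R 4.3.3). Probes with detection p under 0.01 on at least 2 arrays were kept, and 1 mean per group was fitted over all 44 arrays, which left 21 residual degrees of freedom and 3.82 prior ones. Differences were tested with limma's moderated test, p-values were adjusted by Benjamini-Hochberg over 16086 probes, and a call needed an adjusted p under 0.05 and a 2-fold difference; the test of sex by day had no fold threshold. The fit was tested on simulated data. A bound on a fold sets an undetected group, per array, at the higher of its own level and the lowest level detected on that array, and fitted values of undetected probes are not bounds. Summed marker levels are on the linear scale, less the offset. Of 25697 probes, 23978 carry 1 symbol and 1719 none; no probe carries several. The number of arrays limits precision.

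The members and all gene lists, which include 20 regulators of imprints and 13 IGF pathway genes, were chosen with earlier results of these data known. The genes named are the members, up to 4 called genes of each other list with the widest change in a comparison, and the 3 genes most like each member; neighbours of Phlda2 and the call of Irs2 were added after their values were seen. Replicate numbers did not pair the samples: over 210 pairs of groups the correlation of replicate deviations was -0.149 to 0.320, with a median of 0.0145. Alternatives were other background, scaling, filter and probe choices, array weights, the replicate block, the compared arrays alone and leaving out each array.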

Additional observations from a re-analysis of the deposited data

Results flagged for a closer look

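The difference between female and male cells changed with embryonic day on 10 of the 12 tested probes, by limma's F-test over the 7 days from E12.5 to E18.5, adjusted over all probes. The adjusted p was 1.07e-16 for Phlda2, 8.97e-10 for Grb10, 5.14e-10 and 3.70e-08 for the probes of Igf2r and 1.44e-06 for Igf2. It was 1.37e-05 and 1.14e-04 for 2 probes of Mest, 9.64e-03 for Peg3, and 6.34e-10 and 6.00e-06 for the probes of Snrpn. The same test passed 72.7% of all tested probes, so the 10 of 12, which stand for 7 genes, are near the background. With E16.5 left out, chosen after seeing the data because its female arrays stood apart, 10 member probes and 10893 of all probes passed.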

How the results depend on the processing

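Each group has at most 2 arrays, so the spread rests on pooling over groups, and the slide could not be tested because the headers give none. The comparison of E12.5 with E11.5 moved most. Its 4 called probes became 0 with median scaling and 0 in a fit of the compared arrays alone, and 2 each with the authors' log2 values, without the filter and with array weights. Over all probes it had 935 calls, 376 without E11.5 replicate 1 and 2414 without replicate 2. Leaving out 1 array gave 1 to 6 calls there, and the difference of Igf2 was -2.39 to 0.12, the latter without E11.5 replicate 1. Such ranges were 8 to 9 against ES cells, 3 to 4 at E12.5, 4 to 5 at E13.5, 4 to 4 at E14.5 and E15.5, 9 to 10 at E17.5 and E18.5, 4 to 5 in the female and 7 to 8 in the male course, 6 to 7 after birth, 0 to 0 in the first wave and 9 to 11 by day. After birth, median scaling left 3 calls; Phlda2 turned to 0.37, Igf2 to 0.88 and an Igf2r probe to 1.46. Against ES cells it turned the Igf2r probes to -0.0475 and -0.231. Counting the brightest probe of each gene gave 3 calls at E12.5 and 6 late, since fewer probes were counted, and dropping the fold threshold gave 9 at E13.5 and 9 in the female course. Otherwise the cause was not tested. The replicate numbers do not pair the arrays: with the replicate block, no count of member calls moved by over 1.5 times (the dimmest Mest probe became called against ES cells, at -1.23), and the same-numbered arrays did not deviate together (median correlation 0.0145).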
